A study of Mus musculus with 28 samples.

Results

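The regions described here were stretches of chromatin marked by H3K27me3, the trimethylated form of lysine 27 of histone H3, that lie between genes in nonrepetitive DNA of mouse microglia. They were taken from a deposited table of 26326 regions by 4 conditions: both annotation columns begin with Intergenic, the centre lies more than 5 kb from the nearest transcription start site, it lies less than 200 kb from it, and the region spans less than 50 kb. The rule used position and annotation only, no measured value. It found 7210 regions, 27.4% of the table. Microglia, the resident macrophages of the brain, were sorted from adult male WT C57BL/6 mice. Mice on a diet with 0.2% cuprizone, a copper chelator that kills myelinating cells, for 4 weeks gave 3 subsets sorted by the surface proteins CD229 (Ly9, a SLAM family receptor) and CD11c (Itgax, an integrin subunit): CD229+CD11c+, CD229+CD11c- and CD229-CD11c-. Mice on a regular diet gave basal microglia, which the labels describe by low CD44, CD45 and CD11b. All cuprizone groups thus share the diet, and basal cells were gated by other markers than the subsets, so diet and gate cannot be told apart in a comparison with basal cells. Per the labels' protocols, brains of 2 to 6 mice of the same condition were pooled for a sort, so each library averages several animals. Raw counts of 3 libraries in each of the 4 groups were analysed. The basal libraries with counts are replicates 3, 4 and 5, whereas the regions had been called by the authors on basal replicates 1 and 2. A stretch marked only after cuprizone is therefore outside the table.

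H3K27me3 is laid down by Polycomb repressive complex PRC2, whose catalytic subunit is Ezh2 or Ezh1, and is bound by chromobox proteins of PRC1 such as Cbx8. It covers silent developmental genes, above all those of transcription factors with CpG-rich promoters, and forms broad domains around them. Between genes it also marks poised or silenced distal elements, and distal elements are where macrophages and microglia hold much of their cell type-specific regulatory DNA. A region between genes is named below by the gene with the nearest start site, which need not be the gene it acts on.

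Although annotated as intergenic by the authors' tool, 700 of the 7210 regions (9.71%) overlapped the promoter window of a RefSeq transcript, 250 bases before to 50 after its start on GRCm38.p6, which is the assembly of the files' mm10 build. The following 4 windows lie whole inside a region whose level differed between groups and are shown because CpG content differed between regions that were higher and lower after cuprizone. They were chosen after their values were seen. Each is written 5′ to 3′ on the gene's own strand, and capitals mark every CG dinucleotide, the motif searched, which reads the same on both strands. The window of Foxc1, a forkhead factor of mesoderm and vessel development, at chr13:31806396-31806695 (+ strand) holds 32 CG, as many as or more than which stand in 9.52% of all windows. Sox14, an SRY-box factor of neuronal development, has 26 at chr9:99876121-99876420 (- strand), a number reached by 16.9%. Both belong to regions that were higher in the CD229+ subsets. Sh3pxd2b, the podosome adaptor Tks4, has 42 at chr11:32347590-32347889 (+ strand), reached by 3.03%, and lies in a region that was lower in CD229+CD11c+ cells. The long noncoding RNA Gm35541 has 11 at chr5:147753160-147753459 (- strand), reached by 41.4%, and lies in a region upstream of Flt1 that was lower in both CD229+ subsets. A count of CG in a window is a description of its letters and not of what binds it.
Foxc1: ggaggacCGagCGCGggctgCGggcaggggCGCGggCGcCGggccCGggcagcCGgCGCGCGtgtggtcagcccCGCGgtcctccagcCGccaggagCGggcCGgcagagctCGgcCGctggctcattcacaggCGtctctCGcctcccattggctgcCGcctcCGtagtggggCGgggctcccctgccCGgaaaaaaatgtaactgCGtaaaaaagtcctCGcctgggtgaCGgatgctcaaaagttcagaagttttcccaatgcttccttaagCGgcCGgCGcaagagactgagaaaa
Sox14: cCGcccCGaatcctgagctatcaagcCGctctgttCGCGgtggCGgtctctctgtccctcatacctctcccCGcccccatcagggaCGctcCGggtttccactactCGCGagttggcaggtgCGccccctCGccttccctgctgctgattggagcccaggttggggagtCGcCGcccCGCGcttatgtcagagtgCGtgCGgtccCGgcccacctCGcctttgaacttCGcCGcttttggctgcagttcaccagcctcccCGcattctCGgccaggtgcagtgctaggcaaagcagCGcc
Sh3pxd2b: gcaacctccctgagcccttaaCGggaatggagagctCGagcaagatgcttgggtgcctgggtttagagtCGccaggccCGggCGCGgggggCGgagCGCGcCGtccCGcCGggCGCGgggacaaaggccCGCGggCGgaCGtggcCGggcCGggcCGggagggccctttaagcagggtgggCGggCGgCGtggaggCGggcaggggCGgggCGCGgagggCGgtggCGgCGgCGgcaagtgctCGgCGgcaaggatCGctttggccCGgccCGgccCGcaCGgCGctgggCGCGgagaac
Gm35541: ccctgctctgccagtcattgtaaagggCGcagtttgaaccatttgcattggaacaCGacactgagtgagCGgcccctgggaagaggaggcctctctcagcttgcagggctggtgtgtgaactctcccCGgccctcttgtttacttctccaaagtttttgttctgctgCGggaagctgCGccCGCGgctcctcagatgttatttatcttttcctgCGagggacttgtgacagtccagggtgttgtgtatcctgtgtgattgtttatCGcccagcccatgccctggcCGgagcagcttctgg

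Over all promoter windows that lay whole inside the regions, 936 windows in 665 regions, the median was 5 CG, against 7 in all 32851 RefSeq windows and 11 in windows inside regions within 5 kb of a start site. At least 20 CG were held by 8.33% of the windows in intergenic regions and by 26.5% of all windows. Sorted by the change in CD229+CD11c- against basal cells, the 213 windows inside regions that were higher had a median of 10 CG and 20.7% of them had 20 or more. The 22 windows inside regions that were lower had a median of 3 and none reached 20, and the 701 inside regions that were not called had a median of 4, with 4.85% at 20 or more. For CD229+CD11c+ against basal cells the medians were 12 for 115 windows in higher regions, 1 for 17 in lower ones and 4 in the others. Windows of a region overlap each other, so these are descriptions with no test.

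The intergenic regions were less enriched than those at start sites. Their median length was 6120 bp (quartiles 3826 and 10748 bp), against 6386 bp in all regions. Together they cover 63.5 Mb, 22.9% of the 277 Mb in the table. Their centres lie a median of 37402 bp from the nearest start, with 4537 (62.9%) upstream of the gene and 2673 downstream. The authors' log2 enrichment over input, from the basal libraries used for calling, had a median of 1.45 in them (quartiles 1.27 and 1.67), against 1.49 in all regions and 1.70 within 5 kb of a start site. Here and throughout, regions within 5 kb of a start site were taken at any length and annotation. They differ from the intergenic set in more than distance. The nearest gene was protein-coding for 5633 (78.1%) and a noncoding RNA gene for 1481. The 7210 regions had 4093 nearest genes, of which 2571 had a single region and 208 had 5 or more. At the edges of the rule, the regions just inside lie 5005 and 199884 bp from a start site, and those just outside lie 4994 and 200193 bp away or span 50014 bp. Start-site regions, those centred within 5 kb of a start, were also counted by gene list. A broad region that covers a start but is centred farther away is not counted, as with those holding Foxc1 and Sox14. A gene without a start-site region can thus still be marked at its start. No share over all genes was counted. They were called on basal replicates 1 and 2, so the count does not check the libraries analysed here. Of a homeostatic microglia list, 1 of 40 genes (2.5%) had a region within 5 kb of its start. Such a region was found for 45 of 83 neuronal genes (54.2%), 13 of 18 astrocyte genes (72.2%) and 16 of 25 endothelial genes (64.0%). It was found for 6 of 20 oligodendrocyte genes (30.0%), 11 of 30 lymphocyte genes (36.7%) and 15 of 45 disease-associated microglia genes (33.3%). The shares were 41.5% for developmental transcription factors, 62.2% for growth factors, 18.4% for cytokine, 14.3% for Polycomb and 13.9% for interferon genes.

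Levels are given as CPM, tags scaled to a common total over all 26326 regions, with the trimmed mean of M values (TMM), and a difference as a log2 fold change with its standard error (SE). A region was called at an adjusted p under 0.05 in edgeR's quasi-likelihood test, with Benjamini-Hochberg adjustment over all 26326 regions. The libraries held 7740002 to 11362168 tags in regions, and the median region of the set had 143 to 210 tags per library. Each group has 1 library whose title lacks the tag PE150 that the other libraries of the group carry. That library is replicate 3 in every group, so the tag is balanced across groups.

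The share of all region tags that fell in intergenic regions was lowest in CD229+CD11c- cells. It was 20.34, 20.52 and 20.52% in the 3 CD229+CD11c+ libraries, 19.69, 19.83 and 19.98% in CD229+CD11c-, 20.79, 21.03 and 21.26% in CD229-CD11c-, and 21.1, 21.54 and 21.25% in basal libraries. Every library of both CD229+ subsets lay below every basal library, while CD229-CD11c- overlapped basal. The mean difference from basal was -0.83 percentage points for CD229+CD11c+, -1.46 for CD229+CD11c- and -0.27 for CD229-CD11c-, and CD229+CD11c+ exceeded CD229+CD11c- by 0.63. By the exact two-sided permutation test over 3 against 3 libraries, the differences with no overlap had p = 0.1, the smallest this design allows, and 0.133 after adjustment over 4 differences. CD229-CD11c- against basal had an exact p of 0.3. The share is relative: the share within 5 kb of a start site averaged 24.7 ± 0.118% in CD229+CD11c+ cells, 26.0 ± 0.0528% in CD229+CD11c- cells, 23.6 ± 0.181% in CD229-CD11c- cells and 23.2 ± 0.436% in basal cells (SD, n = 3 each).

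**Figure D1:**
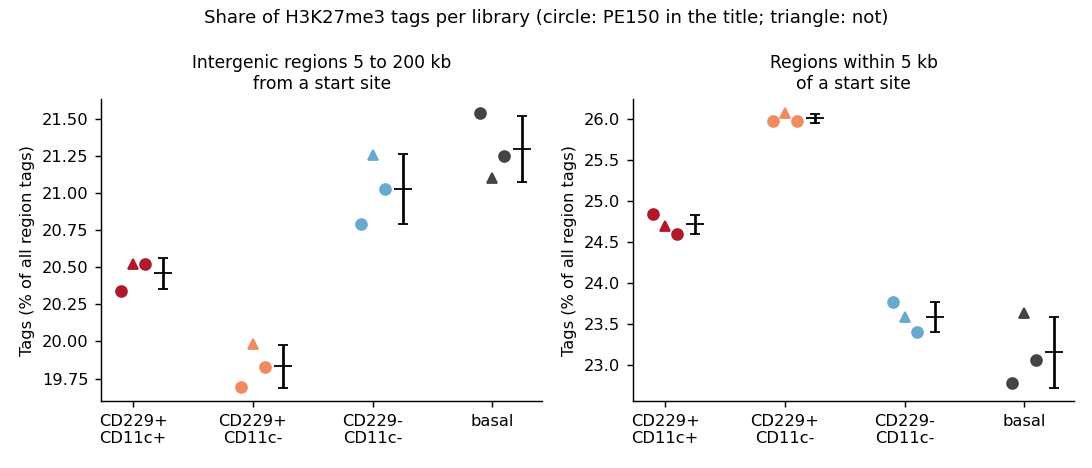
Share of each library's region tags (percent, y axis) that fell in the intergenic regions (left panel) and in regions within 5 kb of a start site (right panel), by group, with each point a library and bars for the mean and SD. On the left, CD229+CD11c- libraries sit between 19.69 and 19.98%, below all basal libraries, which sit between 21.1 and 21.54%.

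CD229+CD11c- microglia differed from basal microglia at 522 intergenic regions, 294 higher and 228 lower. That is 7.24% of the 7210, below the background of 13% of all 26326 regions called in this comparison (9.52% higher and 3.47% lower). Changes were small: the median log2 fold change was -0.05 in intergenic regions and -0.03 in all regions. Of the called intergenic regions, 7 of the higher and 1 of the lower changed by at least 2-fold, against 96 and 47 among all 26326 regions. Regions within 5 kb of a start site were called in 30.6% (1424 higher, 123 lower of 5054), intronic regions over 5 kb away in 10.1%, and intergenic regions 200 kb or more away in 7.58% (9 higher, 36 lower of 594). The start-site regions, unlike the other sets, had no limit on length, so that contrast is between unlike sets. With library totals instead of TMM the split became 160 higher and 1112 lower, with the median of all regions at -0.16. Among all 26326 regions, 1578 were then higher and 3789 lower, so the shift was not confined to intergenic regions. Replicate 3 libraries touch the count too: the tagged libraries alone, 2 per group, gave 1052 called regions, and the tag as a covariate 1145. Without basal replicate 4 the count was 269, and without CD229+CD11c- replicate 1 it was 333.

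Regions are named for the size of their change within a limit: a mean at or above 17.7 CPM, the median of the set, and no overlap between the groups compared. Some regions with larger changes fall outside it. Within it the largest gains were upstream of Sema4b and Fosl2 and downstream of 4933405E24Rik, a noncoding RNA gene. The Sema4b region (chr7:80159841-80167167, 23.3 kb upstream of the gene of a transmembrane semaphorin) had 49.8, 50.9 and 56.3 CPM in CD229+CD11c+, 70.6, 68.5 and 80.7 in CD229+CD11c-, 34.4, 26.6 and 32.2 in CD229-CD11c-, and 28.6, 21.3 and 26.8 in basal libraries. Both CD229+ subsets lay above all CD229-CD11c- and basal libraries, and CD229+CD11c- lay above CD229+CD11c+ throughout. Its log2 fold change against basal was 1.52 (SE 0.11, edgeR adjusted p = 4.57e-08) in CD229+CD11c- and 1.03 (SE 0.11, adjusted p = 1.98e-05) in CD229+CD11c+. The 4933405E24Rik region (chr11:54161596-54166932, 49.0 kb downstream) had 40.4, 40.7 and 40.9 CPM in CD229+CD11c+, 48.2, 39.5 and 60.4 in CD229+CD11c-, 17.0, 16.8 and 25.5 in CD229-CD11c-, and 15.1, 19.5 and 17.0 in basal libraries. The CD229+ subsets again stood apart from the other 2 groups, with log2 fold changes against basal of 1.52 (SE 0.16, adjusted p = 1.97e-06) in CD229+CD11c- and 1.24 (SE 0.16, adjusted p = 0.000134) in CD229+CD11c+.

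The Fosl2 region (chr5:32113094-32135031, 12.4 kb upstream of the gene of an AP-1 subunit) had 117, 119 and 145 CPM in CD229+CD11c+, 183, 191 and 243 in CD229+CD11c-, 89.0, 79.1 and 116 in CD229-CD11c-, and 103, 83.5 and 79.3 in basal libraries. CD229+CD11c- libraries stood above all others, and CD229+CD11c+ libraries lay between them and basal. It rose by a log2 fold change of 1.21 (SE 0.14, adjusted p = 7.06e-06) in CD229+CD11c- and 0.52 (SE 0.14, adjusted p = 0.0306) in CD229+CD11c+. The call in CD229+CD11c+ was lost without basal replicate 4 (adjusted p = 0.139) or 5 (0.11), without CD229+CD11c+ replicate 1 (0.0579), 2 (0.0594) or 3 (0.0982), and with library totals (0.0664). The region also holds the long noncoding RNA gene Gm36665. The Il17ra region (chr6:120447302-120463035, 8.03 kb upstream of the gene of an interleukin-17 receptor chain) had 71.3, 69.5 and 91.1 CPM in CD229+CD11c+, 118, 112 and 165 in CD229+CD11c-, 57.1, 55.8 and 111 in CD229-CD11c-, and 89.5, 64.1 and 57.6 in basal libraries. Replicate 3 was the highest library in each cuprizone group. Its log2 fold change was 0.91 (SE 0.22, adjusted p = 0.0102) in CD229+CD11c-, but the adjusted p was 0.0511 without basal replicate 5 and 0.0647 without CD229+CD11c- replicate 3, and in CD229+CD11c+ the value was 0.14 (adjusted p = 0.777).

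Other regions with large gains in CD229+CD11c- cells lay near genes of varied function. The Ptcd2 region, 62.0 kb downstream of a gene of a mitochondrial pentatricopeptide protein, rose by a log2 fold change of 0.90 (adjusted p = 2.76e-05). The H2-M10.4 region, downstream of a nonclassical major histocompatibility gene, rose by 0.87 (adjusted p = 0.000195), and that of 3110009F21Rik by 1.02 (adjusted p = 0.00155).

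Within the same limit, the regions with the largest losses in CD229+CD11c- cells included those of Egr1, Flt1 and Rd3. The Egr1 region (chr18:34861048-34871977) contains the whole gene of this immediate early transcription factor, its centre being 5.3 kb downstream of the start. It had 14.4, 19.0 and 19.7 CPM in CD229+CD11c+, 21.9, 21.2 and 23.6 in CD229+CD11c-, 23.1, 24.9 and 38.3 in CD229-CD11c-, and 39.0, 35.7 and 32.1 in basal libraries. Both CD229+ subsets lay below all basal libraries, and the CD229-CD11c- libraries spread over most of the range. The log2 fold change was -0.68 (SE 0.16, adjusted p = 0.00555) in CD229+CD11c- and -1.01 (SE 0.16, adjusted p = 0.000908) in CD229+CD11c+. The Flt1 region (chr5:147745357-147754927), 24.1 kb upstream of the gene of a vascular endothelial growth factor receptor, had 18.9, 17.0 and 22.7 CPM in CD229+CD11c+, 21.6, 20.9 and 27 in CD229+CD11c-, 28.3, 31.4 and 44.9 in CD229-CD11c-, and 39.9, 35.1 and 36.3 in basal libraries. Every CD229+ library lay below every library of the other 2 groups. It fell by 0.68 on the log2 scale in CD229+CD11c- (adjusted p = 0.00408) and by 0.92 in CD229+CD11c+ (adjusted p = 0.00135), whereas the region at the Flt1 start had -0.13 and -0.23 and was not called (adjusted p = 0.555 and 0.284).

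The Rd3 region (chr1:191942615-191964377), upstream of a gene of photoreceptor guanylate cyclase trafficking and overlapping part of it, had 63.1, 65.1 and 82.5 CPM in CD229+CD11c+, 64.0, 67.5 and 63.3 in CD229+CD11c-, 86.6, 85.7 and 112 in CD229-CD11c-, and 115, 103 and 97.9 in basal libraries. Both CD229+ subsets were below all basal libraries, by -0.69 (SE 0.11, adjusted p = 0.000133) in CD229+CD11c- and -0.58 (adjusted p = 0.00311) in CD229+CD11c+. Further regions lower in CD229+CD11c- cells were those of Sema6a, a transmembrane semaphorin (-0.70, adjusted p = 0.000619), Lrig3, a leucine-rich repeat membrane protein (-0.64, adjusted p = 0.000767), Mael, a factor of the piRNA pathway (-0.62, adjusted p = 0.00301), and 4933416E03Rik (-0.62, adjusted p = 0.00229). The region of Slc39a14, a zinc and iron transporter, had -0.64 (adjusted p = 0.00888), which passed 0.05 neither without basal replicate 4 (adjusted p = 0.0598) nor without CD229+CD11c- replicate 1 (adjusted p = 0.0523). That region overlaps the gene Piwil2.

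**Figure D2:**
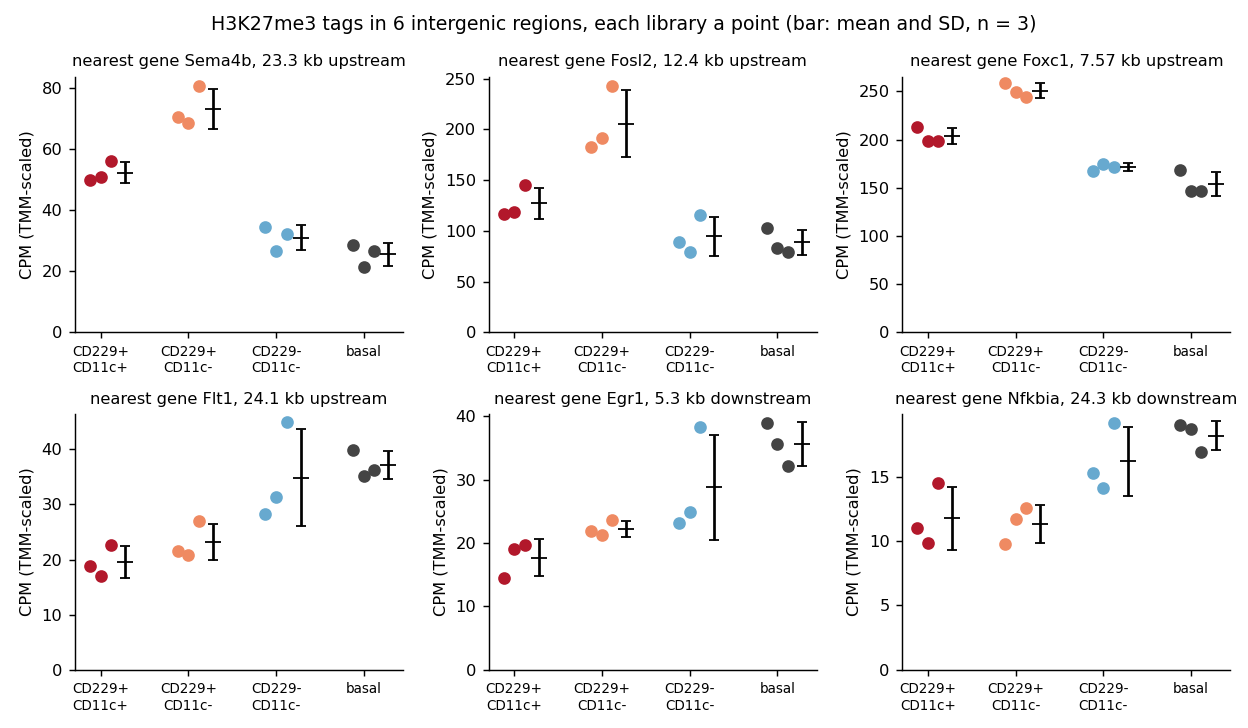
Level (CPM) in every library of intergenic regions that changed in the CD229+ subsets, 1 panel per region and 1 point per library, with the groups along the x axis and bars for the mean and SD. The Sema4b panel has CD229+CD11c- at 68.5 to 80.7 CPM and basal at 21.3 to 28.6, and the Flt1 panel has CD229+CD11c+ at 17.0 to 22.7 and basal at 35.1 to 39.9.

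CD229+CD11c+ microglia differed from basal microglia at 215 intergenic regions, 130 higher and 85 lower. They make up 2.98% of the set, against a background of 5.79% of all regions (4.33% higher and 1.47% lower), with a median log2 fold change of -0.03 in the set and -0.01 in all regions. In this comparison 2 of the 7210 regions were higher and 3 lower by at least 2-fold, against 18 and 45 among all 26326 regions. The count changed when 1 library was left out, which also leaves fewer libraries in a group. It was 48 without basal replicate 4, 54 without CD229+CD11c+ replicate 1 and 71 without CD229+CD11c+ replicate 2. It was 111 without basal replicate 3, 146 without basal replicate 5 and 244 without CD229+CD11c+ replicate 3. Fitting these 2 groups alone gave 496, the tagged libraries alone 791 and the tag as a covariate 852. Library totals in place of TMM gave 75 higher and 204 lower.

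Besides the Sema4b and 4933405E24Rik regions, the largest gains in CD229+CD11c+ cells within the limit included the region of Pitx1, a homeobox factor of hindlimb and pituitary. This region (chr13:55886934-55904559, 64.3 kb upstream) had 88.9, 87.5 and 73.8 CPM in CD229+CD11c+, 83.8, 82.5 and 70.0 in CD229+CD11c-, 64.4, 66.4 and 52.3 in CD229-CD11c-, and 47.1, 42.8 and 55.6 in basal libraries. Both CD229+ subsets lay above all basal libraries, and 1 of the CD229-CD11c- libraries lay within the basal range. It rose by 0.78 on the log2 scale in CD229+CD11c+ (SE 0.11, adjusted p = 0.000288) and by 0.70 in CD229+CD11c- (adjusted p = 0.000149). The regions of Trp53i11, a p53-induced gene (0.72, adjusted p = 0.00301), and of 1700057H15Rik (0.71, adjusted p = 0.00153) rose as well. Those of Tenm3, a teneurin adhesion protein (0.76, adjusted p = 0.0141), Plce1, a phospholipase C (0.70, adjusted p = 0.00571), and 3110009F21Rik (0.88, adjusted p = 0.0139) were called, but lost the call in fits that left out 1 library. In those fits the log2 fold change was 0.66 to 0.8 for Tenm3, 0.63 for Plce1 and 0.78 to 0.85 for 3110009F21Rik. Without basal replicate 4 their adjusted p was 0.0605, 0.0563 and 0.0919 in that order. Without CD229+CD11c+ replicate 1 it was 0.0931 for Tenm3 and 0.08 for 3110009F21Rik, without CD229+CD11c+ replicate 2 it was 0.0901 and 0.0575, and without basal replicate 3 it was 0.0639 for Tenm3.

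Among the losses in CD229+CD11c+ cells was a region upstream of Vav3, a guanine nucleotide exchange factor. It (chr3:109246989-109258825, 87.8 kb away) had 25.8, 29.3 and 33.3 CPM in CD229+CD11c+, 33.6, 31.9 and 44.4 in CD229+CD11c-, 40.5, 38.7 and 47.7 in CD229-CD11c-, and 51.1, 47.7 and 42.9 in basal libraries. The CD229+CD11c+ libraries were all below the CD229-CD11c- and basal ones, and the log2 fold change against basal was -0.68 (SE 0.13, adjusted p = 0.00294) in CD229+CD11c+ and -0.37 (adjusted p = 0.0579) in CD229+CD11c-. The Sh3pxd2b region (chr11:32332981-32351107), whose promoter window is printed above, had 56.5, 55.7 and 68.0 CPM in CD229+CD11c+, 74.9, 73.0 and 78.7 in CD229+CD11c-, 80.7, 79.8 and 95.9 in CD229-CD11c-, and 97.6, 84.9 and 86.8 in basal libraries. CD229+CD11c+ libraries lay below all others, with -0.58 against basal (SE 0.09, adjusted p = 0.000786), and the value in CD229+CD11c- was -0.25 (adjusted p = 0.0814).

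Near microRNA genes there were 231 intergenic regions and 127 nearest microRNA genes. In CD229+CD11c- against basal cells 12 of the 231 were higher and 7 lower, and in CD229+CD11c+ 3 were higher and 2 lower. These are 5.19% and 3.03%, and 1.3% and 0.866%, of the 231, against 9.52% and 3.47%, and 4.33% and 1.47%, of all regions. The one named within the limit of level and overlap lies at Mir34a. MicroRNA regions with larger losses in CD229+CD11c- fall outside that limit. Mir34a is a gene whose host transcript is a target of p53 and whose mature strands are printed here from RefSeq (GRCm38.p6) with the seed, bases 2 to 8, in capitals.
mmu-miR-34a-5p: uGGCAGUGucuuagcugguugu
mmu-miR-34a-3p: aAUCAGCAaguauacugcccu
Its region (chr4:150044981-150051987, 20.0 kb upstream) had 14.1, 15.3 and 18.6 CPM in CD229+CD11c+, 16.5, 16.6 and 22.9 in CD229+CD11c-, 17.2, 17.0 and 24.6 in CD229-CD11c-, and 31.0, 26.9 and 22.3 in basal libraries. CD229+CD11c+ libraries lay below all basal libraries, while the highest CD229+CD11c- and CD229-CD11c- libraries lay above the lowest basal one. The log2 fold change against basal was -0.73 (SE 0.17, adjusted p = 0.0134) in CD229+CD11c+ and -0.52 (SE 0.17, adjusted p = 0.0467) in CD229+CD11c-. The call in CD229+CD11c+ was lost without basal replicate 3 (adjusted p = 0.0775), basal replicate 4 (0.0684), CD229+CD11c+ replicate 1 (0.0948) or CD229+CD11c+ replicate 2 (0.0724). The call in CD229+CD11c- was lost without basal replicate 3 (0.204) or 4 (0.135) and without CD229+CD11c- replicate 1 (0.191) or 2 (0.18), and with DESeq2's size factors (0.0508). Of the remaining losses in CD229+CD11c+ against basal cells, the region of Ppp2r1a, the scaffold subunit of phosphatase PP2A, had -0.66 (adjusted p = 0.00692, and 0.0657 without CD229+CD11c+ replicate 1). The regions of Gm527 (-0.61), Ypel5, a yippee-like protein (-0.59), and Serp2, an endoplasmic reticulum stress protein (-0.58), each lost the call when a library was left out. Their adjusted p was then 0.0516 without basal replicate 4, 0.0623 without CD229+CD11c+ replicate 2 and 0.0574 without CD229+CD11c+ replicate 1.

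Both comparisons share the basal libraries, so their calls are not independent. Side by side, 105 regions were higher in both CD229+ subsets, 189 in CD229+CD11c- alone and 25 in CD229+CD11c+ alone. Lower were 42 in both, 186 in CD229+CD11c- alone and 43 in CD229+CD11c+ alone, and none was called in opposite directions. A call in one subset alone does not show a difference between them. The overlap of calls was counted in intergenic regions only and not over all regions. Whether it is particular to intergenic regions was therefore not tested.

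Tested directly, CD229+CD11c+ and CD229+CD11c- cells differed at 24 intergenic regions, 3 higher and 21 lower in CD229+CD11c+. They are 0.333% of the set, against 0.824% of all regions (0.0532% higher and 0.771% lower). None of these changes reached 2-fold, and among all regions 0 higher and 7 lower ones did. DESeq2 gave 72 regions (7 higher, 65 lower), a fit of these 2 groups alone 62 (5 and 57), and the tag as a covariate 317 (109 and 208). In the other direction, library totals gave 1 higher and 1 lower (3 and 25 among all regions), loess offsets 2 higher and 4 lower (22 and 25). The Cemip2 region (chr19:21880022-21907644), 115 kb downstream of the gene of a transmembrane hyaluronidase, had 119, 112 and 118 CPM in CD229+CD11c+ and 150, 173 and 202 in CD229+CD11c-, with 108, 104 and 130 in CD229-CD11c- and 126, 103 and 99.4 in basal libraries. It was high in CD229+CD11c- alone, and the log2 fold change of CD229+CD11c+ against CD229+CD11c- was -0.59 (SE 0.11, adjusted p = 0.014). The Fosl2 region had -0.69 (adjusted p = 0.0236) and the Sema4b region -0.48 (adjusted p = 0.0361, and 0.0811 or more without any 1 of CD229+CD11c- replicates 1 to 3 or CD229+CD11c+ replicates 1 and 2). The Chd6 region (chr2:161141491-161159173), upstream of a chromodomain helicase gene, ran the other way, with 61.0, 61.1 and 62.5 CPM in CD229+CD11c+, 43.4, 46.5 and 49.2 in CD229+CD11c-, 62.3, 60.1 and 53.8 in CD229-CD11c-, and 59.8, 62.9 and 58.7 in basal libraries. CD229+CD11c- libraries stood below all others there, and the log2 fold change of CD229+CD11c+ over CD229+CD11c- was 0.41 (adjusted p = 0.0242). These calls are fragile: without CD229+CD11c- replicate 3, CD229+CD11c+ replicate 1 or CD229+CD11c+ replicate 2 1 region passed the threshold, and 2 did without CD229+CD11c- replicate 2 and 8 without CD229+CD11c- replicate 1.

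Against CD229-CD11c- cells from the same diet, CD229+CD11c- cells had 310 called regions, 209 higher and 101 lower (4.3% of the set, against 8.35% of all regions, 6.75% higher and 1.6% lower). Same-numbered libraries of these groups deviated together, but so did replicates 1 and 2 across numbers. With the replicate number as a block the count was 818, 429 higher and 389 lower, and with the PE150 tag as a covariate it was 780. Library totals gave 116 higher and 481 lower, and 1059 higher and 1697 lower among all regions. The count of intergenic regions was 186 without CD229+CD11c- replicate 2 and 198 without CD229-CD11c- replicate 2. Sema4b (1.23, adjusted p = 2.56e-06), 4933405E24Rik (1.31, adjusted p = 2.36e-05), Fosl2 (1.11, adjusted p = 4.09e-05) and Ptcd2 regions led the gains. The losses were led by the Flt1 region (-0.60, adjusted p = 0.0173), a call lost without CD229-CD11c- replicate 3 (adjusted p = 0.0866), CD229+CD11c- replicate 1 (0.0781) or CD229+CD11c- replicate 2 (0.0932). CD229+CD11c+ against CD229-CD11c- gave 16 regions, 12 higher and 4 lower (0.222% of the set, against 0.547% of all regions, 0.395% higher and 0.152% lower), and 286 with the block, 185 higher and 101 lower, or 226 with the tag as a covariate. Library totals gave 8 higher and 5 lower (60 and 50 among all regions), and loess offsets 16 and 10 (84 and 62). Higher among them were the regions of 4933405E24Rik (1.03, adjusted p = 0.00263) and Sema4b (0.75, adjusted p = 0.00181). Lower were those of Flt1 (-0.83, adjusted p = 0.0115) and Sh3pxd2b (-0.51, SE 0.09, adjusted p = 0.00983). Without CD229+CD11c+ replicate 1 the last 2 had an adjusted p of 0.0892 and 0.102, and without CD229+CD11c+ replicate 2 of 0.106 and 0.0997. The count was 6 without CD229+CD11c+ replicate 1, 7 without CD229+CD11c+ replicate 2, 8 without CD229-CD11c- replicate 2 and 35 without CD229-CD11c- replicate 3.

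CD229-CD11c- microglia, which had the same cuprizone diet, had no intergenic region called against basal microglia, and none of all regions was called (0.0%). At an unadjusted p under 0.05 in edgeR there were 255 of the 7210, and 1103 of all 26326 regions. DESeq2 called 0, with 207 of the 7210 and 901 of all regions at an unadjusted p under 0.05. The tagged libraries alone, 2 per group, gave 161 called regions, 124 higher and 37 lower, and leaving out CD229-CD11c- replicate 3 gave 3. The region with the smallest p, near the heparan sulfate sulfotransferase gene Hs3st3b1, had 11.8, 10.9 and 11.8 CPM in CD229-CD11c- against 7.1, 7.18 and 8.11 in basal libraries (log2 fold change 0.62, SE 0.16, unadjusted p = 0.000971, edgeR adjusted p = 0.983).

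Gains in the CD229+ subsets were more frequent among long regions, among strongly enriched ones and, in CD229+CD11c-, among those closer to a start site. In CD229+CD11c- against basal cells, 18.8% of the 626 regions of 20 to 50 kb were higher and 4.31% lower, whereas 1.06% of the 2828 regions under 5 kb were higher and 2.16% lower. By distance, 9.42% of the 807 regions at 5 to 10 kb were higher and 2.35% lower, and at 100 to 200 kb 2.6% of 1153 were higher and 4.34% lower. By basal enrichment, the top quintile had 12.2% higher and 1.73% lower, and the bottom one 0.902% higher and 4.65% lower. Regions that overlap a promoter window were higher in 112 of 700 (16.0%) and lower in 17 (2.43%), against 182 (2.8%) and 211 (3.24%) of the other 6510. Upstream regions (4.03% higher, 3.06% lower) and downstream regions (4.15% and 3.33%) were close to each other. Longer regions hold more tags. Length and enrichment did not rise together: the median length was 3779 bp in the top enrichment quintile and 6984 bp in the bottom one. Regions nearer to a start site were somewhat longer and more enriched. Their median length was 6931 bp at 5 to 10 kb and 5481 bp at 100 to 200 kb, and their median log2 enrichment 1.51 and 1.41. The parts of these properties were not told apart by any fit.

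By length and enrichment, CD229+CD11c+ against basal cells had the same order at a lower level: 8.63% of the regions of 20 to 50 kb were higher and 1.44% lower, against 0.424% and 0.707% under 5 kb. The top enrichment quintile had 4.85% higher and 1.04% lower. By distance, 4.21% were higher and 1.73% lower at 5 to 10 kb, and at 10 to 20 kb 1.16% were higher and 1.39% lower. At 100 to 200 kb 1.82% were higher and 0.781% lower, so the share higher did not fall steadily with distance in this subset. How far the balance tips depends on the scaling. With library totals, 11.2% of the regions of 20 to 50 kb were higher and 20.9% lower in CD229+CD11c-, and with offsets fitted by loess on basal enrichment and tag density, which take out trends with these 2 by construction, 8.79% were higher and 4.15% lower. At 5 to 10 kb the values were 5.82% higher and 13.3% lower with totals and 4.46% higher and 3.22% lower with loess offsets. Under TMM and loess, but not under library totals, long regions were thus more often higher than lower in CD229+CD11c-.

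**Figure D3:**
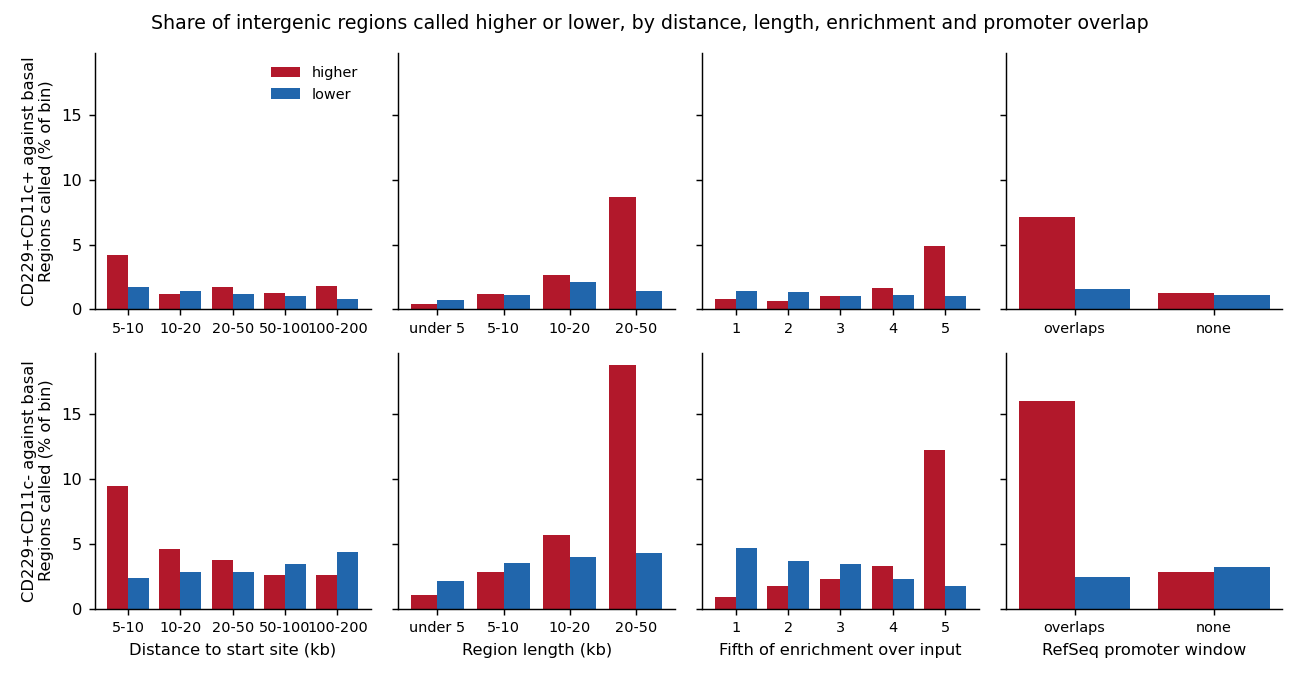
Percent of intergenic regions called higher or lower against basal cells, for CD229+CD11c+ and CD229+CD11c-, in classes of distance to the start site, length, quintile of basal enrichment and overlap with a promoter window (x axes), with the percent of each class called on the y axes. In CD229+CD11c- the higher calls reach 18.8% among regions of 20 to 50 kb and 1.06% among those under 5 kb.

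**Figure D4:**
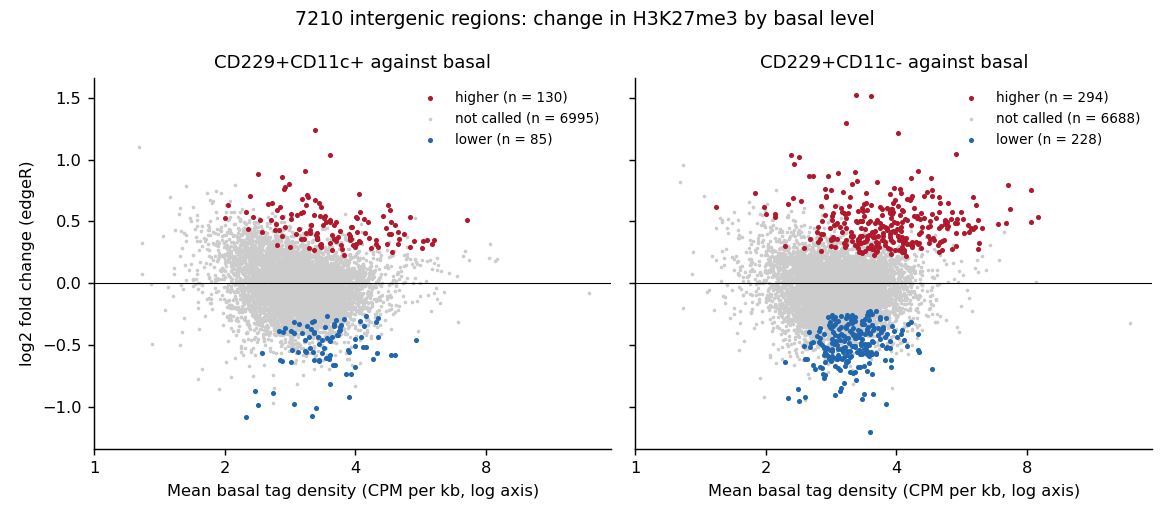
Log2 fold change against basal cells (y axis) by mean basal tag density in CPM per kb (log axis, x axis) for every intergenic region, CD229+CD11c+ and CD229+CD11c- in panels of their own, with called regions in colour. In CD229+CD11c- 294 higher and 228 lower regions were called, and in CD229+CD11c+ 130 and 85.

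For 2289 of the intergenic regions (31.7%) the nearest gene also had a marked region centred within 5 kb of its start. In CD229+CD11c- against basal cells that start-site region was higher for 33 of the 69 intergenic regions that were higher (47.8%) and lower for none of them. For the 73 that were lower, it was higher for 13 (17.8%) and lower for 6 (8.22%). Over all 2289, 30.1% of the start-site regions were higher and 2.66% lower. These shares were not tested against each other. In CD229+CD11c+ the start-site region was higher for 16 of 29 (55.2%) and for 3 of 31 (9.68%), against 17.3% of all.

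Grhl2, Asic2 and Ptger3 had an intergenic region lower and the start-site region higher in both CD229+ subsets, and are named for that after their values were seen. The Ptger3 region (chr3:157717073-157729044, 156 kb downstream of the gene of a prostaglandin E2 receptor) had 26.3, 32.4 and 35.4 CPM in CD229+CD11c+, 28.3, 32.0 and 31.2 in CD229+CD11c-, 36.2, 36.7 and 39.1 in CD229-CD11c-, and 41.5, 46.2 and 39.4 in basal libraries. All CD229+ libraries lay below the other 2 groups. Its log2 fold change against basal was -0.43 (adjusted p = 0.021) in CD229+CD11c+ and -0.48 (adjusted p = 0.00457) in CD229+CD11c-, while the start-site region had 0.73 and 0.98. The Asic2 region, upstream of an acid-sensing ion channel gene, had -0.43 (adjusted p = 0.0463) and -0.57 (adjusted p = 0.0039), and its start-site region 0.71 and 0.77 in the same order. The Grhl2 region, upstream of an epithelial transcription factor gene, had -0.56 (adjusted p = 0.0172) and -0.41 (adjusted p = 0.0497), and its start-site region 0.41 and 0.65. Without basal replicate 4 all 3 intergenic losses missed the threshold in CD229+CD11c+ (adjusted p = 0.143 for Ptger3, 0.105 for Asic2 and 0.134 for Grhl2), as did the Grhl2 loss in CD229+CD11c- (adjusted p = 0.264). The Asic2 call in CD229+CD11c+ was lost in every fit that left out 1 library (adjusted p up to 0.143). Leaving out CD229+CD11c+ replicate 1 or replicate 2 ended the call in CD229+CD11c+ for Ptger3 (adjusted p = 0.158 and 0.067) and for Grhl2 (0.0755 and 0.058), and without basal replicate 3 Ptger3 had 0.052.

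By gene list, the called regions near developmental transcription factor genes were mostly gains. Of 195 such genes 65 were the nearest gene of 154 intergenic regions, of which 19 were higher and none lower in CD229+CD11c+, and 25 higher and 1 lower in CD229+CD11c-, with medians of 0.09 and 0.03 on the log2 scale. The higher ones are 12.3% and 16.2% of the 154, against 4.33% and 9.52% of all regions, whose medians were -0.01 and -0.03. Library totals gave 16 higher and 2 lower in CD229+CD11c+ and 18 higher and 14 lower in CD229+CD11c-. Loess offsets gave 12 and none, and 13 and 2. The Foxc1 region (chr13:31783120-31815025, holding the whole gene) had 213, 199 and 199 CPM in CD229+CD11c+, 259, 249 and 244 in CD229+CD11c-, 167, 175 and 172 in CD229-CD11c-, and 168, 147 and 147 in basal libraries. Every CD229+ library lay above every library of the other 2 groups, with log2 fold changes against basal of 0.40 (adjusted p = 0.00142) in CD229+CD11c+ and 0.70 (SE 0.07, adjusted p = 6.95e-07) in CD229+CD11c-. The Sox14 region (chr9:99851199-99882646), which also holds its whole gene, had 179, 165 and 144 CPM in CD229+CD11c+, 194, 184 and 162 in CD229+CD11c-, 133, 126 and 105 in CD229-CD11c-, and 102, 95.4 and 108 in basal libraries. Both CD229+ subsets lay above the others, by 0.68 (adjusted p = 0.000288) and 0.82 (SE 0.10, adjusted p = 5.01e-06) against basal. Hand1, a helix-loop-helix factor of heart development, had 0.32 (adjusted p = 0.00722) and 0.54 (adjusted p = 9.17e-06). With loess offsets neither was called (0.18 and 0.17, adjusted p = 0.0939 and 0.105), and the call in CD229+CD11c+ was lost without basal replicate 4 (0.0642).

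Genes of the Polycomb machinery themselves had 14 intergenic regions, 1 higher in CD229+CD11c+ (7.14%, against 4.33% of all regions) and 4 higher in CD229+CD11c- (28.6%, against 9.52%), none lower. The Cbx8 region (chr11:119040869-119074273), which overlaps part of this PRC1 chromobox gene, had 313, 324 and 385 CPM in CD229+CD11c+, 428, 443 and 512 in CD229+CD11c-, 274, 266 and 345 in CD229-CD11c-, and 317, 242 and 262 in basal libraries. CD229+CD11c- libraries stood above all others, with a log2 fold change of 0.75 (SE 0.11, adjusted p = 0.000105). With loess offsets it was not called, at 0.13 (adjusted p = 0.265). The Rybp region (chr6:100381742-100395862), 101 kb upstream of a PRC1 subunit gene, had 0.73 (SE 0.11, adjusted p = 7.44e-05), and 0.55 in CD229+CD11c+ (adjusted p = 0.00516, and 0.0579 without basal replicate 4). Library totals gave 4 higher and 2 lower of the 14 in CD229+CD11c-, and loess offsets 2 higher and none lower.

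The cytokine and NF-kB list had 16 intergenic regions, none higher, 2 lower in CD229+CD11c+ (12.5%, against 1.47% of all regions) and 3 lower in CD229+CD11c- (18.8%, against 3.47%), with medians of -0.17 and -0.2, against -0.01 and -0.03 in all regions. Library totals gave 3 and 5 lower, with list medians of -0.24 and -0.34. They also moved the median of all regions down, to -0.08 and -0.16, so lower calls under totals add no support. Loess offsets gave 2 and 2 lower, with list medians of -0.11 and -0.15, against -0.0 and -0.01 in all regions. The Nfkbia region (chr12:55464983-55471747), 24.3 kb downstream of the gene of the NF-kB inhibitor IkB-alpha, had 11.0, 9.82 and 14.5 CPM in CD229+CD11c+, 9.74, 11.7 and 12.6 in CD229+CD11c-, 15.3, 14.1 and 19.2 in CD229-CD11c-, and 19.0, 18.7 and 16.9 in basal libraries. All CD229+ libraries lay below all basal ones. The log2 fold change was -0.62 (adjusted p = 0.0256) in CD229+CD11c+ and -0.69 (SE 0.16, adjusted p = 0.00565) in CD229+CD11c-. In CD229+CD11c+ the call was lost without basal replicate 3 (adjusted p = 0.0879), basal replicate 4 (0.111), CD229+CD11c+ replicate 1 (0.131) or CD229+CD11c+ replicate 2 (0.145). The region of Lif, an interleukin-6 family cytokine, had -0.43 (adjusted p = 0.0311) and -0.38 (adjusted p = 0.0338). That of Nos2, the inducible nitric oxide synthase, was called in CD229+CD11c- (-0.28, adjusted p = 0.0488). It was not with DESeq2's size factors (0.0561), DESeq2 (0.0599) or loess offsets (0.0807), and in CD229+CD11c+ it was called with library totals (0.0373) and with the tag as a covariate (0.0198). Without basal replicate 3 the adjusted p for Lif was 0.126 in CD229+CD11c+ and 0.129 in CD229+CD11c-, and for Nos2 it was 0.128 in CD229+CD11c-. Both regions also lost their calls without basal replicate 4 or 5, and in CD229+CD11c- without replicate 1 or 3 of that subset (adjusted p up to 0.137 for Lif and 0.226 for Nos2). In CD229+CD11c+ the Lif call was lost without CD229+CD11c+ replicate 1 (adjusted p = 0.135) or replicate 2 (0.142) too.

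Homeostatic microglia genes had 19 intergenic regions. In CD229+CD11c+ 1 was higher and none lower, and in CD229+CD11c- 1 was higher and 1 lower. Each is 5.26% of the 19, against 4.33% higher in CD229+CD11c+ and 9.52% higher and 3.47% lower in CD229+CD11c- of all regions. The region of Maf (chr8:115716270-115726702), a macrophage transcription factor, lay 14.6 kb upstream. It had 30.8, 26.4 and 27.6 CPM in CD229+CD11c+, 23.2, 21.4 and 24.8 in CD229+CD11c-, 28.7, 30.3 and 33.0 in CD229-CD11c-, and 32.1, 35.7 and 33.9 in basal libraries. CD229+CD11c- libraries were the lowest of all, with -0.55 against basal (SE 0.11, adjusted p = 0.00105), and the value in CD229+CD11c+ was -0.26 (adjusted p = 0.152). The Irf8 region, 150 kb downstream of this microglial lineage factor, had 0.37 (adjusted p = 0.0425) in CD229+CD11c+ and 0.35 (adjusted p = 0.0312) in CD229+CD11c-. It was called with neither library totals (adjusted p = 0.0761 and 0.128) nor loess offsets (0.122 and 0.375), and the calls were lost without basal replicate 4 (0.211 and 0.172), without basal replicate 3 (0.133 and 0.0969), and without replicate 1 (0.188 and 0.158) or 2 (0.133 and 0.103) of the subset itself. Genes of the disease-associated microglia list had 24 regions, 1 higher and 1 lower in each CD229+ subset, or 4.17% each. Of all regions, 4.33% were higher and 1.47% lower in CD229+CD11c+, and 9.52% and 3.47% in CD229+CD11c-. The lower one was the Flt1 region, which the endothelial list also holds. The higher one was that of Myof, the membrane repair protein myoferlin, with 0.36 (adjusted p = 0.00996) in CD229+CD11c+ and 0.41 (SE 0.08, adjusted p = 0.000932) in CD229+CD11c-. In CD229+CD11c+ the adjusted p for Myof was 0.0651 without basal replicate 4 and 0.0604 without CD229+CD11c+ replicate 2. None of 36 interferon and antigen presentation genes was the nearest gene of an intergenic region.

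Regions near growth factor genes and markers of other cell types had few calls, beside 5.79% of all regions called in CD229+CD11c+ and 13% in CD229+CD11c-. Of 58 growth factor regions none was called in CD229+CD11c+ and 1 was higher and 3 lower in CD229+CD11c-. Of 32 neuronal regions 1 was higher in CD229+CD11c+ and none was called in CD229+CD11c-. Of 22 endothelial regions 1, that of Flt1, was lower in each subset. Of 25 lymphocyte regions, 1, near Cd8a, was lower in CD229+CD11c+ (-0.33, adjusted p = 0.0465), a call lost without basal replicate 3 (0.1), 4 (0.21) or 5 (0.064) and without CD229+CD11c+ replicate 1 (0.219) or 2 (0.17). The oligodendrocyte list had 6 regions and 1 call in each subset (16.7%), that of Nkx6-2, a homeobox gene also on the developmental list. It had 0.37 in CD229+CD11c+ (adjusted p = 0.0369) and 0.62 in CD229+CD11c- (SE 0.10, adjusted p = 0.000237). The value in CD229+CD11c+ was not called with loess offsets (adjusted p = 0.244), with library totals (0.0717), without basal replicate 3 (0.113) or 4 (0.189), or without CD229+CD11c+ replicate 1 (0.229) or 2 (0.123). The astrocyte list had 13 regions, with 1 higher in CD229+CD11c-, near Fgfr3 (0.50, adjusted p = 0.00169).

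Some genes had many intergenic regions around them. Irx3, an Iroquois homeobox gene, had 13, and their log2 fold changes had a median of 0.29 in CD229+CD11c+ (0.07 to 0.46, all above 0) and 0.04 in CD229+CD11c- (-0.26 to 0.23), with no region called. Rasgrp1, a Ras exchange factor of lymphocytes and mast cells, also had 13, all upstream, with values in CD229+CD11c- of -0.37 to 0.05 and a median of -0.14. Cxcl12, the chemokine that binds CXCR4, had 11, of which 1 was higher and 1 lower in CD229+CD11c-. Hs3st3b1 had 11 and Ankrd55 had 10, the Ankrd55 regions with a median of -0.18 in CD229+CD11c+ and -0.15 in CD229+CD11c-. Regions of 1 gene can be parts of 1 broad domain and are not independent of each other. In CD229+CD11c- against basal cells, 473 genes had at least 1 called region, 268 of them a higher one and 206 a lower one, and 1 had both. Lrig3 had 3 of its 6 regions lower, Chd6 3 of 6 and Cyp1b1, a cytochrome P450 gene, 3 of 4 higher.

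**Figure D5:**
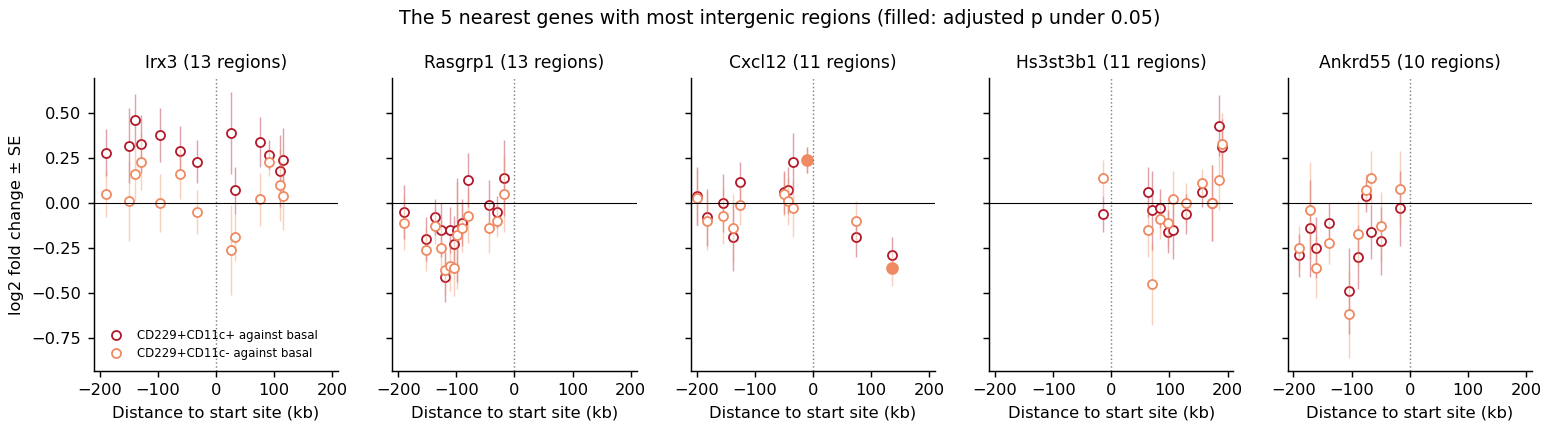
Log2 fold change against basal cells with its SE (y axis) of each intergenic region of the 5 genes with the most regions, by distance to the start site in kb (x axis), for CD229+CD11c+ and CD229+CD11c-. A panel is a gene and a point a region. The 13 Irx3 regions lie between 0.07 and 0.46 in CD229+CD11c+ and between -0.26 and 0.23 in CD229+CD11c-.

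Per length, the densest intergenic region in basal cells was near Hjurp, a centromere histone chaperone gene, at 13.1 CPM per kb in CD229+CD11c+ cells, 11.1 in CD229+CD11c- cells, 13.8 in CD229-CD11c- cells and 13.8 ± 1.81 in basal cells (SD, n = 3). The region near Igf2bp3, an RNA-binding protein gene of fetal tissues, followed with 9.72, 12.3, 9.12 and 8.51 ± 1.88 CPM per kb in the same order of groups. The Cbx8 region had 10.2, 13.8, 8.83 and 8.19 ± 1.16, and that of Terc, the telomerase RNA, 9.37, 11.5, 9.05 and 8.15 ± 1.19. The Terc region holds 3 transfer RNA genes. At the low end, the regions of Ccl27a and Gucy2f had 1.29 CPM per kb in basal cells. The basal SD of the 4 densest regions covers the gaps between them after Hjurp, so their order is not fixed by these libraries.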

How the data were processed

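Per the file headers, the authors called regions in mm10 with HOMER on basal H3K27me3 replicates 1 and 2 against 2 inputs. The submitters' processing notes list STAR 2.7.0f, fastp 0.20.0 and Bowtie2 2.3.4.1 beside DESeq2 and HOMER, without their roles. Tags of 12 H3K27me3 libraries in these regions were deposited as raw counts, and these counts were tested here; the input libraries were not used. The authors' normalized signal, their p-values and their log2 fold changes between groups were deposited too and not used. Deposited log2 fold changes over input served as enrichment. The region size in bp, deposited as another column, served as length.

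edgeR 4.0.16 (R 4.3.3) was run on all 26326 regions: filterByExpr (which removed none), TMM scaling, 1 model of 4 groups, robust quasi-likelihood F-tests, Benjamini-Hochberg adjustment, and calls at an adjusted p under 0.05. DESeq2 1.42.0, other scalings, filters, sample subsets and each library left out were alternatives. Levels are TMM-scaled CPM. A distance to a start site runs from the region's centre. Promoter windows and microRNAs came from RefSeq tables of GRCm38.p6. The regions and gene lists were chosen with earlier results of these data known. Named regions were, by rule, the called ones with the largest change each way (8 in the comparisons of CD229+ subsets with basal cells, 4 in the others), at or above the median level of 17.7 CPM and with no overlap between groups, 1 per gene; the 3 of each list with the smallest p; the 5 densest and 5 sparsest; and the 5 genes with the most regions. Some named regions are not reported here. Same-numbered libraries of CD229-CD11c- and the other subsets deviated together: the correlations of deviations from the group means were 0.283, 0.128 and 0.457 with CD229+CD11c-, and 0.237, 0.134 and 0.417 with CD229+CD11c+. CD229-CD11c- replicate 2 also correlated with CD229+CD11c- replicate 1 (0.248). The labels do not say that replicates come from separate animals beyond the pools, so p-values measure the spread between these libraries.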

Additional observations from a re-analysis of the deposited data

Results flagged for a closer look

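Among the named regions, 7 were called in the test between CD229+CD11c+ and CD229+CD11c-. All of them but Sema4b had been named for their change in this same comparison (2 higher and 4 lower). For those, the call was a condition of being named and adds no support. On the log2 scale, CD229+CD11c+ against CD229+CD11c- had -0.69 at the Fosl2 region, -0.48 at Sema4b, -0.64 at Ankrd60, -0.59 at Cemip2 and -0.53 at Trhr2, a receptor gene for thyrotropin-releasing hormone. It had 0.41 at Chd6 and 0.43 at Gm7538. Against basal cells, the Ankrd60, Cemip2 and Trhr2 regions had -0.08, 0.09 and 0.0 in CD229+CD11c+, and 0.56, 0.68 and 0.53 in CD229+CD11c-. The edgeR adjusted p ran between 0.014 (Cemip2) and 0.0476 (Gm7538). Of the 7, Chd6 alone kept its call with library totals, and each of the 7 lost it without CD229+CD11c+ replicate 2 (adjusted p between 0.173 and 0.246), among other fits that left out 1 library. The Ankrd60 region had 20.9, 18.6 and 17.6 CPM in CD229+CD11c+, 26.3, 30.5 and 32.2 in CD229+CD11c-, 19.2, 21.1 and 19.4 in CD229-CD11c-, and 22.1, 19.0 and 19.2 in basal libraries, so CD229+CD11c- stood above the other 3 groups.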

How the results depend on the processing

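Counts of called regions depended on the settings. CD229+CD11c- against basal (522) had 1272 with library totals, 1145 with the tag as a covariate, 1052 with tagged libraries alone, 8 at 2-fold and 347 at 10 to 100 kb. CD229+CD11c+ against basal (215) had 496 with these 2 groups alone, 852 and 791 with the tag as a covariate or tagged libraries alone, 5 at 2-fold and 137 at 10 to 100 kb. CD229-CD11c- against basal had 161 in tagged libraries alone. CD229+CD11c- against CD229-CD11c- (310) had 597 with totals, 122 with loess offsets, 164 with the 2 groups alone, 780 and 571 with the tag settings, 6 at 2-fold, 198 at 10 to 100 kb and 201 under 20 kb of length. CD229+CD11c+ against CD229-CD11c- (16) had 26 with loess offsets, 51 with DESeq2, 5 with the 2 groups alone, 226 and 144 with the tag settings, 1 at 2-fold and 10 at 10 to 100 kb. CD229+CD11c+ against CD229+CD11c- (24) had 2 with totals, 6 with loess offsets, 72 with DESeq2, 62 with the 2 groups alone, 317 and 219 with the tag settings, 0 at 2-fold, 12 at 10 to 100 kb and 11 under 20 kb of length. The cause of these differences was not tested. With the replicate block, and with the block and loess offsets, the 3 comparisons between subsets had 818 and 508, 286 and 220, and 365 and 108 in the same order. For CD229+CD11c+ and CD229+CD11c- the same-numbered libraries correlated by 0.2, 0.083 and 0.331. Across numbers, CD229+CD11c- replicate 3 had -0.24 with CD229+CD11c+ replicate 1 and -0.141 with replicate 2. CD229+CD11c- replicate 2 had 0.096 with CD229+CD11c+ replicate 1. The labels do not say whether libraries of a number share an origin, and this was not tested. For the comparisons with basal cells, no paired analysis was possible because basal libraries share only the number 3 with the subsets. Leaving out 1 library at a time gave 0 to 3 calls for CD229-CD11c-, 269 to 505 for CD229+CD11c- and 48 to 244 for CD229+CD11c+ against basal. It gave 186 to 428 and 6 to 35 for CD229+CD11c- and CD229+CD11c+ against CD229-CD11c-, and 1 to 19 between the CD229+ subsets. The difference in tag share from basal then ran between -0.38 and -0.14 points for CD229-CD11c-, -1.56 and -1.34 for CD229+CD11c-, and -0.93 and -0.71 for CD229+CD11c+, with 0.56 and 0.7 between the CD229+ subsets. At 10 to 100 kb the CD229+CD11c- difference was -1.19. Among named regions, 1607 values stayed on their side of the threshold, 217 lost it and 42 gained it under an alternative. Both values that changed sign were not called: the Enpp6 region in CD229+CD11c+ against basal ran between 0 (without basal replicate 5) and 0.23 with 1 library left out, and that of Zfp488 between -0.23 (without CD229+CD11c+ replicate 1) and 0.5. The list counts and classes under other scalings, the Asic2, Grhl2 and Ptger3 values, and the alternatives for regions named in another comparison, were chosen after seeing the data. The median region held 143 to 210 tags per library, which limits the precision of each value.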
